A study of Oryza sativa with 6 samples.

Results

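The 8 genes described here encode transporters of zinc and cadmium in rice: 6 members of the ZIP family (ZIP1, ZIP3, ZIP4, ZIP5, ZIP8 and ZIP9) and the heavy-metal ATPases HMA2 and HMA3. They were chosen by locus identifier and name, with earlier results of these data known. All 8 were among the 37863 loci of the count table. Their transcripts were measured by RNA sequencing in rice (Oryza sativa, cultivar Kitaake) whose hydroponic boxes also held the actively growing floating fern Azolla filiculoides (co-cultivated, 3 libraries), against rice alone (control, 3 libraries). In both groups, seedlings 13 days old were moved, 4 to a box, into about 5 L of Yoshida nutrient solution without aeration, and RNA was taken at 15 DAT from the last 1 cm of the roots. Only the control boxes had a cover over the water to keep algae out, so effects of the fern and of the missing cover cannot be told apart. The libraries of a group are called biological replicates with the box as unit.

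ZIP proteins carry zinc, iron, manganese or cadmium across a membrane into the cytoplasm, and several rice ZIP genes are known to be induced when the plant lacks zinc. Heavy-metal ATPases of the P1B type use ATP to pump metal ions out of the cytoplasm, either out of the cell towards the xylem or into the vacuole. Cadmium has no known nutritional role in rice and enters through carriers of zinc, manganese and iron, so the same proteins bear on zinc nutrition and on cadmium in the plant.

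The libraries held 23477086 to 25120456 estimated counts in the co-cultivated group and 21551508 to 23703813 in the control group. Levels are given as CPM (counts scaled to a common library total) after TMM scaling, which levels out composition differences between libraries. They are not divided by transcript length, so a level is compared between libraries and never between genes. In whole root tips, fewer cells of a type and less RNA per cell cannot be told apart. The 3 root markers (LSI1, LSI2 and the locus listed as RCc3) were high in every library, with summed levels of 3216 to 5240 CPM in the co-cultivated and 1454 to 2272 CPM in the control libraries. The 5 leaf markers (listed as 3 small subunits of Rubisco and 2 chlorophyll-binding proteins) together held 2.12 to 20.8 CPM in co-cultivated and 9.93 to 22.3 CPM in control libraries. Among these, each Rubisco gene was under 1 CPM in every library, with the locus listed as RBCS3 at 0 in 1 co-cultivated library and that listed as RBCS2 at 0 in 1 co-cultivated and 2 control libraries.

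Among the transporter transcripts, ZIP5 rose in co-cultivated root tips, 9.88-fold. The zinc uptake gene ZIP9 next to it averaged 4.46-fold and the phloem zinc gene ZIP4 averaged 2.12-fold of the control level, but neither passed the threshold, an adjusted p under 0.05 in edgeR's quasi-likelihood test over all loci tested. HMA2, which loads zinc and cadmium for transport to the shoot, averaged 184 CPM in co-cultivated and 342 CPM in control root tips without passing. HMA3, which moves cadmium into root vacuoles, had nearly equal means in the co-cultivated and control groups. Of the 7 loci with enough counts to be tested, 1 was called higher and 0 lower by edgeR, where 1.46% of all 24615 tested loci were called higher and 1.17% lower, 2.63% in all. At an unadjusted p under 0.05 there were 3 higher and 1 lower of the 7, against 20.4% of all tested loci in either direction. DESeq2 called 3 of them higher, namely ZIP5, ZIP4 and ZIP9, and 0 lower, and it called 6.17% of all loci higher and 4.13% lower. limma-voom called 1 higher, ZIP5, and 0 lower, against 1.26% of all loci called higher and 1.02% lower. The co-cultivated and control libraries did not overlap for 2 tested transporters on the higher side (ZIP5 and ZIP4), where 12.4% of all loci had this pattern, and for 1 on the lower side (HMA2), where 15.3% did. The median log2 fold change of the 7 was 1.08, beside −0.03 over all loci tested. The 3 root markers had a median log2 fold change of 1.08 as well, with co-cultivated libraries above control libraries without overlap for 3 of 3. The endodermis marker CASP1, 1 of 1 listed, had a log2 fold change of 0.06. Its groups overlapped, at 97.8 to 176 CPM in co-cultivated and 34.7 to 218 CPM in control libraries. The part of these markers in the transporter values was not tested.

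ZIP5 (Os05g0472700) and ZIP9 (Os05g0472400), plasma membrane carriers with which rice roots take up zinc and also some cadmium, lie close together on chromosome 5. RefSeq lists 0 genes between them, and the deposited counts list 1 locus there, with at most 1 count in a library. Counts of ZIP5 were 346, 593 and 294 in co-cultivated replicates 1 to 3, against 64, 26 and 27 in control replicates 1 to 3. Scaled, these were 15.3, 23.9 and 11.6 CPM in the co-cultivated libraries and 2.79, 1.20 and 1.14 CPM in the control libraries. The lowest co-cultivated library was far above the highest control library. ZIP5 averaged 16.9 ± 6.30 CPM in co-cultivated and 1.71 ± 0.938 CPM in control root tips (SD, n = 3 each), 9.88-fold with a 95% interval of 4.78 to 20.4 (log2 fold change 3.30 with an SE of 0.45; edgeR adjusted p = 0.0153). Of the 24615 loci, 96 had a higher fold change than ZIP5. Its call was lost without co-cultivated replicate 1, where the log2 fold change was 3.38 (edgeR adjusted p = 0.0692). It kept its call in the other 5 fits with 1 library left out, and over all 6 such fits the log2 fold change ran from 2.97 to 3.85.

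Counts of ZIP9 were 187, 294 and 67 in co-cultivated replicates 1 to 3, against 76, 9 and 32 in control replicates 1 to 3. The groups overlapped: co-cultivated replicate 3, at 2.64 CPM, lay below control replicate 1, at 3.31 CPM, while co-cultivated replicates 1 and 2, at 8.27 and 11.8 CPM, lay above every control library. The means were 7.59 ± 4.64 CPM in co-cultivated and 1.69 ± 1.48 CPM in control root tips (SD, n = 3 each), a log2 fold change of 2.16 ± 0.77 (SE; 95% interval 0.35 to 3.96, edgeR adjusted p = 0.177). DESeq2 gave an adjusted p of 0.0367 for the same difference, and leaving out 1 library moved the log2 fold change between 1.68 and 3.08 with no call by edgeR. The root hair markers EXPA17 and CSLD1, 2 of 2 listed, also averaged higher in the co-cultivated group. They summed to 26.6 to 56.0 CPM in co-cultivated and 7.17 to 19.5 CPM in control libraries, with neither at 0 in any library (edgeR adjusted p = 0.103 for EXPA17 and 0.0847 for CSLD1). Most of the sum was CSLD1. EXPA17 was at 0.711 CPM in co-cultivated replicate 3, close to the 0.675 CPM of control replicate 3. DESeq2 called 2 of 2 root hair markers and 3 of 3 root markers higher, and limma-voom called 0 of either. Over all loci, DESeq2 called 6.17% higher and limma-voom 1.26%. The part of these cell types in the ZIP5 and ZIP9 values was not tested.

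**Figure D1:**
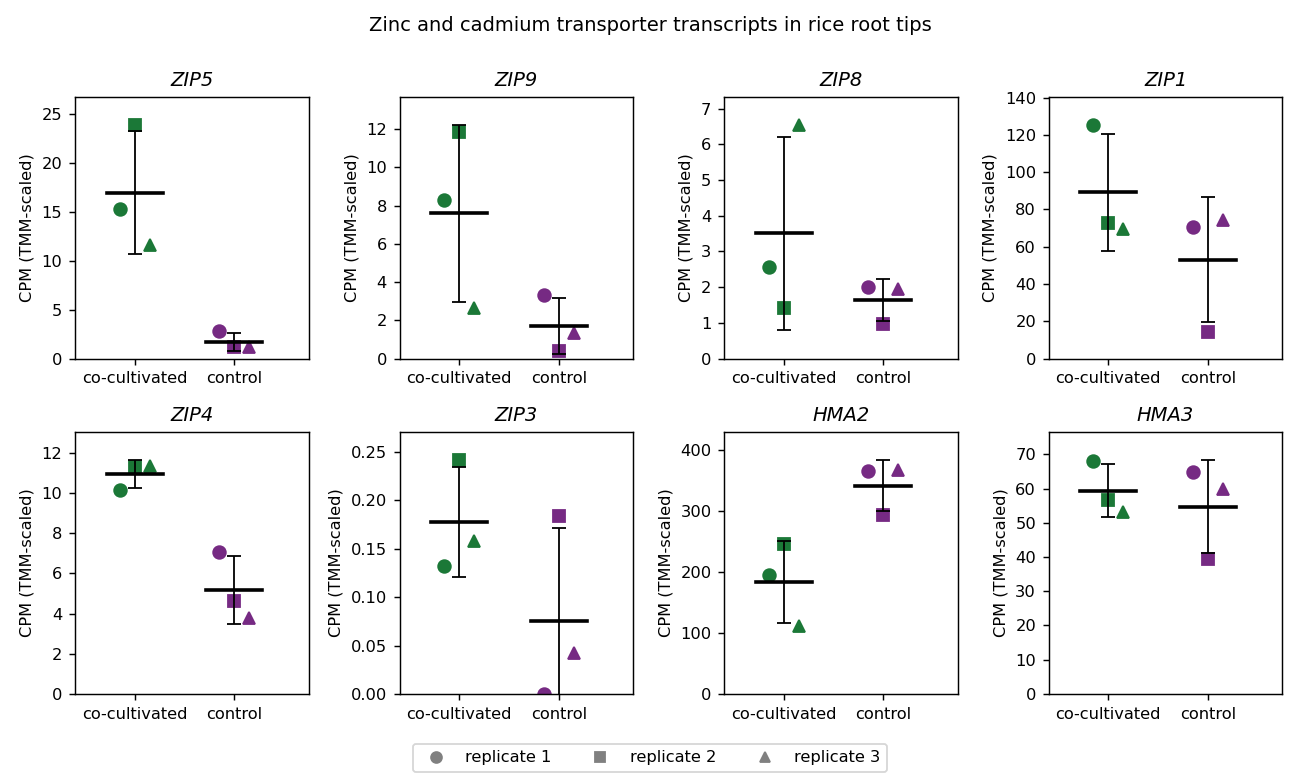
Level of each of the 8 transporter transcripts in CPM (TMM-scaled, vertical axes from 0, each panel with its own scale) in 3 co-cultivated and 3 control libraries; symbols mark the replicate number, horizontal bars the group mean and error bars the SD (that of ZIP3 in control libraries runs below the axis). ZIP5 sits at 11.6 to 23.9 CPM in co-cultivated libraries, all above the control libraries at 1.14 to 2.79 CPM, whereas HMA3 overlaps between the groups.

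ZIP4 (Os08g0207500), a zinc carrier active in phloem and meristems, gave the tightest values of the ZIP transcripts beside the fern. Its levels were 10.1, 11.3 and 11.4 CPM in the co-cultivated libraries, against 7.06, 4.64 and 3.80 CPM in the control libraries. No co-cultivated library reached down to a control library. Means of 10.9 ± 0.701 CPM in co-cultivated and 5.17 ± 1.70 CPM in control root tips (SD, n = 3 each) gave a log2 fold change of 1.08 ± 0.26 (SE; 95% interval 0.47 to 1.69, edgeR adjusted p = 0.0782). DESeq2 called it, with an adjusted p of 0.00395, and without 1 library edgeR gave log2 fold changes of 0.90 to 1.37 and adjusted p of 0.0857 to 0.222. The root markers, LSI2 among them, moved the same way as ZIP4. DESeq2 called them as well, where it called 6.17% of all loci higher. The part of the root markers in the ZIP4 values was not tested.

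ZIP8 (Os07g0232800), a plasma membrane zinc carrier gene, depended on 1 library. It was at 2.57, 1.41 and 6.55 CPM in co-cultivated replicates 1, 2 and 3, against 2.01, 0.966 and 1.94 CPM in control replicates 1, 2 and 3. Co-cultivated replicate 3 stood above the rest, co-cultivated replicate 1 lay just above the control libraries and co-cultivated replicate 2 among them. The log2 fold change was 1.10 ± 0.59 (SE; 95% interval −0.29 to 2.48, edgeR adjusted p = 0.342), and without co-cultivated replicate 3 it was 0.27.

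ZIP1 (Os01g0972200), described in rice as an exporter of excess zinc, copper and cadmium, varied within both groups. It held 126, 72.8 and 69.4 CPM in co-cultivated replicates 1, 2 and 3, against 70.6, 14.5 and 74.3 CPM in control replicates 1, 2 and 3. Control replicate 2 was far below the other control libraries, with the highest control level 5.13-fold above it, and the remaining libraries of the groups overlapped. The log2 fold change of 0.75 ± 0.56 (SE; 95% interval −0.57 to 2.07, edgeR adjusted p = 0.499) was 0.30 without control replicate 2. That library also had the highest summed level of the 3 dividing-cell markers (CYCB1;1, CDKB2;1 and PCNA), at 224 CPM. Control replicate 3 held 96.8 CPM of them, and the co-cultivated libraries 141 to 178 CPM, with none of the 3 at 0 in any library; the part of this in the ZIP1 values was not tested. The deposited ZIP1 counts were not whole in 3 libraries, so some of its reads may have been divided with a similar locus.

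ZIP3 (Os04g0613000), which unloads zinc from the xylem in the nodes of the shoot, was barely detected in root tips. Its counts were 3, 6 and 4 in co-cultivated replicates 1 to 3, against 0, 4 and 1 in control replicates 1 to 3. These were too few for the filter on low counts, so ZIP3 was not tested. The sums of 13 counts in co-cultivated and 5 counts in control libraries gave a ratio of 2.44 after scaling with an exact 95% interval of 0.818 to 8.75, which covers counting error only.

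HMA2 (Os06g0700700), a plasma membrane pump of the root pericycle that loads zinc and cadmium into the xylem, was the 1 tested transporter with a negative fold change. It stood at 195, 246 and 112 CPM in co-cultivated replicates 1, 2 and 3, against 366, 294 and 367 CPM in control replicates 1, 2 and 3. Every co-cultivated library was below every control library, with the smallest gap between co-cultivated replicate 2 and control replicate 2. The means were 184 ± 67.6 CPM in co-cultivated and 342 ± 41.9 CPM in control root tips (SD, n = 3 each), a log2 fold change of −0.89 ± 0.29 (SE; 95% interval −1.57 to −0.22, edgeR adjusted p = 0.148). DESeq2 gave an adjusted p of 0.0518. Leaving out 1 library gave log2 fold changes of −1.16 to −0.63, with the value nearest 0 when co-cultivated replicate 3 was left out. Both stele markers were detected in all 6 libraries. PHO1;2 held 473 to 643 CPM in co-cultivated and 354 to 689 CPM in control libraries, and SHR1 14.8 to 20.2 CPM in co-cultivated and 15.9 to 25.1 CPM in control libraries. Their part in the HMA2 values was not tested.

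HMA3 (Os07g0232900), a pump of the vacuole membrane that stores cadmium in root cells, lay at 68.1, 56.6 and 53.3 CPM in co-cultivated replicates 1, 2 and 3, against 65.0, 39.4 and 60.0 CPM in control replicates 1, 2 and 3. The groups overlapped, and control replicate 2 was the lowest library. Means of 59.3 ± 7.76 CPM in co-cultivated and 54.8 ± 13.6 CPM in control root tips (SD, n = 3 each) differed by 0.12 ± 0.21 in log2 fold change (SE), without a call (edgeR adjusted p = 0.801). The 95% interval ran from −0.39 to 0.62, so differences between 0.765-fold and 1.53-fold fall inside it. Without control replicate 2 the log2 fold change was −0.08.

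**Figure D2:**
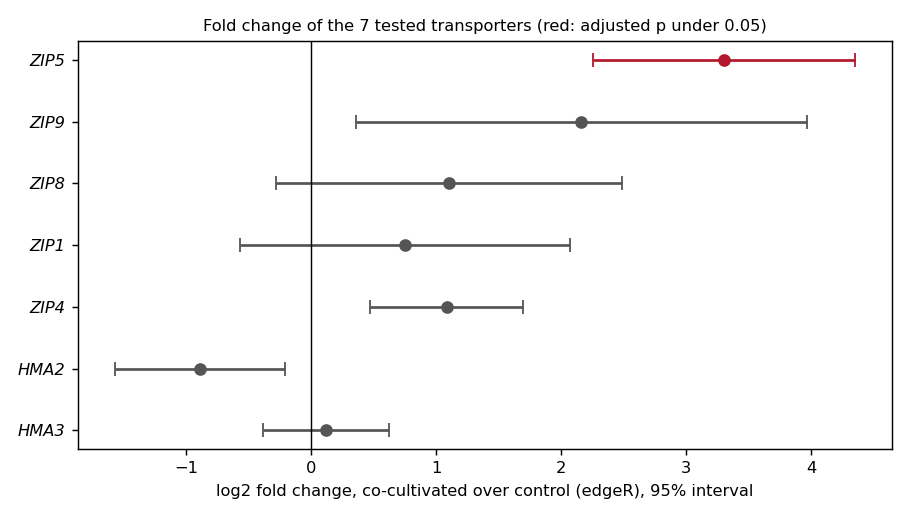
Log2 fold change, co-cultivated over control, from edgeR (horizontal axis) for the 7 tested transporters (vertical axis), with bars for the 95% interval of each gene alone, not adjusted for the number of loci; red marks an adjusted p under 0.05. The bars of ZIP5, ZIP9, ZIP4 and HMA2 lie clear of 0, and ZIP5, at 3.30, is the one called.

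Pairs of related or neighbouring genes were also compared as log2 ratios of counts within each library, so that scaling between libraries drops out. With 3 libraries against 3 the exact permutation test cannot give a p below 0.1, and 3 pairs were tested. The ratio of HMA3 to HMA2, the vacuolar over the xylem-loading pump, was −1.52, −2.12 and −1.07 in co-cultivated libraries and −2.49, −2.90 and −2.61 in control libraries. All 3 co-cultivated libraries were higher, by 1.10 on average (exact permutation p = 0.1, two-sided, the smallest possible; 0.3 adjusted over 3 pairs). The ratio of ZIP5 to ZIP9 was 0.89, 1.01 and 2.13 in co-cultivated and −0.25, 1.48 and −0.24 in control libraries, a mean difference of 1.01 with overlapping groups (exact permutation p = 0.3, two-sided; 0.4 adjusted). HMA3 and ZIP8 are neighbouring loci on chromosome 7, with 1 locus listed between them at 0 counts in every library. Their ratio was 4.72, 5.31 and 3.02 in co-cultivated and 5.00, 5.32 and 4.93 in control libraries, a mean difference of −0.74 (exact permutation p = 0.4, two-sided; 0.4 adjusted), which was −0.07 without co-cultivated replicate 3.

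**Figure D3:**
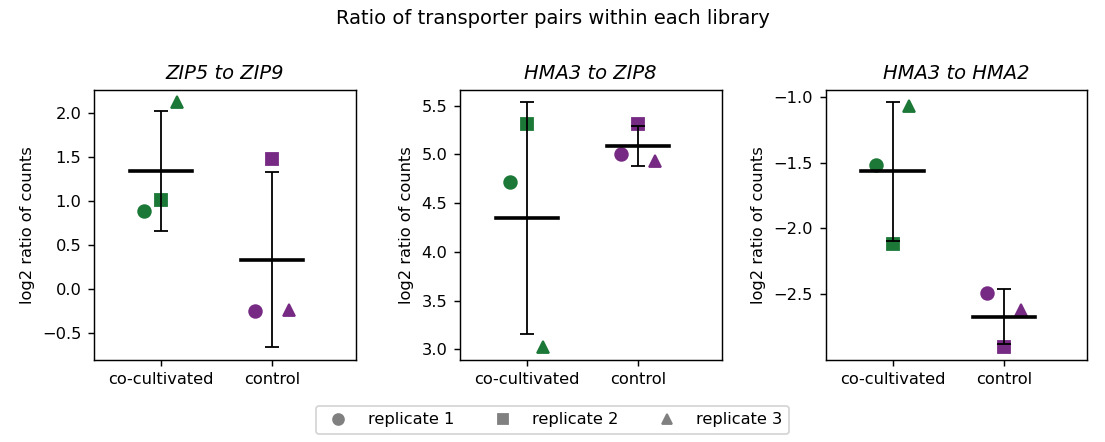
Log2 ratio of counts within a library (vertical axes, not starting at 0) for ZIP5 to ZIP9, HMA3 to ZIP8 and HMA3 to HMA2 in co-cultivated and control libraries; symbols mark the replicate number, horizontal bars the mean and error bars the SD of 3 libraries. The HMA3 to HMA2 ratio is the one whose groups do not overlap, at −2.12 to −1.07 in co-cultivated and −2.90 to −2.49 in control libraries.

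The spread between libraries of a group exceeded counting error for most of these transcripts. The coefficient of variation of ZIP1 was 35.2% over the co-cultivated and 63.1% over the control libraries, where counting alone gives 2.16% in co-cultivated and 2.85% in control libraries. For HMA2 it was 36.7% over co-cultivated and 12.2% over control libraries, where counting gives 1.50% in co-cultivated and 1.13% in control libraries. For ZIP9 it was 61.1% over co-cultivated and 87.4% over control libraries, where counting gives 7.40% in co-cultivated and 16.0% in control libraries. ZIP4 over the co-cultivated libraries differed little beyond counting, at 6.40% beside 6.13%, and ZIP3, with 13 counts over the co-cultivated libraries, did not exceed it there, at 32.2% beside 48.0%. Within the co-cultivated group, replicate 3 was the lowest library for 5 of the 8 transporters (ZIP1, ZIP5, ZIP9, HMA2 and HMA3) and the highest for 2 (ZIP4 and ZIP8). Within the control group, replicate 2 was the lowest for 5 (ZIP1, ZIP8, ZIP9, HMA2 and HMA3).

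Other genes of metal transport and handling, not all of them for zinc or cadmium, were read from 3 lists with 27 genes. Of these, 26 were tested, and edgeR called 1 higher and 4 lower, where it called 1.46% of all loci higher and 1.17% lower. Of the 10 further ZIP family genes, 1 was called higher and 2 lower, and their median log2 fold change was −0.39. ZIP10 (Os06g0566300), a further ZIP gene, rose to 12.8, 10.8 and 14.1 CPM in co-cultivated libraries, against 2.92, 4.28 and 1.60 CPM in control libraries. Its groups did not overlap, and its log2 fold change was 2.10 ± 0.35 (SE, edgeR adjusted p = 0.0312). Leaving out control replicate 1, or a single co-cultivated replicate, ended that call (edgeR adjusted p of 0.0632 to 0.130). IRT1 and IRT2, the ferrous iron carriers of the same family, fell: IRT1 was at 0.531 to 1.42 CPM in co-cultivated and 113 to 220 CPM in control libraries (log2 fold change −7.55, SE 0.46, edgeR adjusted p = 0.00114). IRT2 held 3 counts over the co-cultivated libraries and 3144 over the control libraries. These sums were 1115-fold lower after scaling, with an exact 95% interval of 381 to 5409.7 that covers counting error only. The edgeR fit over the libraries gave a log2 fold change of −9.92 (SE 0.85, 95% interval −11.91 to −7.93, edgeR adjusted p = 0.00330). The 3 counts all lay in co-cultivated replicate 1, with the other two co-cultivated libraries at 0. Without that library the fitted log2 fold change was −13.07 (edgeR adjusted p = 0.0292), beside −9.92 with it, and both fitted values depend on the fit's prior count. Within 1 protein family, ZIP5 and ZIP10 were thus called higher, and IRT1 and IRT2 called lower, in the same libraries. Of the 13 tested genes named ZIP, members and others together, edgeR and limma-voom each called 2 higher and 0 lower. DESeq2 called 4 higher and 1 lower, where it called 6.17% of all loci higher and 4.13% lower. The shares over all loci were 1.46% higher and 1.17% lower for edgeR, and 1.26% higher and 1.02% lower for limma-voom. At an unadjusted edgeR p under 0.05, 5 of the 13 were higher and 2 lower, against 20.4% of all tested loci in either direction. Of the 13 fold changes, 7 were above 0 and 6 below.

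Of the 7 further heavy-metal ATPases, 0 were called higher and 1 lower by edgeR, where it called 1.17% of all loci lower. Their median log2 fold change was −0.31. An unadjusted edgeR p under 0.05 was reached by 0 higher and 3 lower, against 20.4% of all tested loci in either direction. DESeq2 called 0 higher and 2 lower, where it called 4.13% of all loci lower, and limma-voom called 0 in either direction. The call was the locus listed as HMA8 (Os03g0178100), at 17.8, 17.3 and 19.7 CPM in co-cultivated and 30.9, 27.6 and 35.6 CPM in control libraries (log2 fold change −0.78, SE 0.15, edgeR adjusted p = 0.0492). It stood at the threshold and was lost in 5 of the 6 fits without 1 library, all but that without control replicate 2 (edgeR adjusted p of 0.0984 to 0.194), and in 6 of the other 11 alternatives. The loci listed as HMA7 (Os08g0486100), at −0.65 ± 0.19, and HMA4, a pump that stores copper in root vacuoles, at −0.60 ± 0.22, had the next smallest p in this list (edgeR adjusted p = 0.123 and 0.183).

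Of 10 further genes of zinc and cadmium handling, 9 were tested, and 0 were called higher and 1 lower by edgeR, DESeq2 and limma-voom alike. Over all loci, edgeR called 1.17% lower, DESeq2 4.13% and limma-voom 1.02%. An unadjusted edgeR p under 0.05 was likewise reached by 0 higher and 1 lower of the 9, against 20.4% of all tested loci in either direction. The median log2 fold change of the 9 was −0.26. NRAMP1, a metal carrier known for iron that also carries cadmium, fell to 2.80 to 9.56 CPM in co-cultivated libraries, against 425 to 824 CPM in control libraries (log2 fold change −6.77, SE 0.57, edgeR adjusted p = 0.00330). The locus listed as CAL1 (Os02g0629800), a defensin-like protein that binds cadmium, was at 1.16 ± 0.52 and the locus listed as CD1 (Os03g0114800), a cadmium uptake carrier, at −0.33 ± 0.17 (edgeR adjusted p = 0.264 and 0.328). The untested locus, listed as LCT1 (Os06g0579200), was at 0 counts in all 6 libraries and is named after its values were seen.

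**Figure D4:**
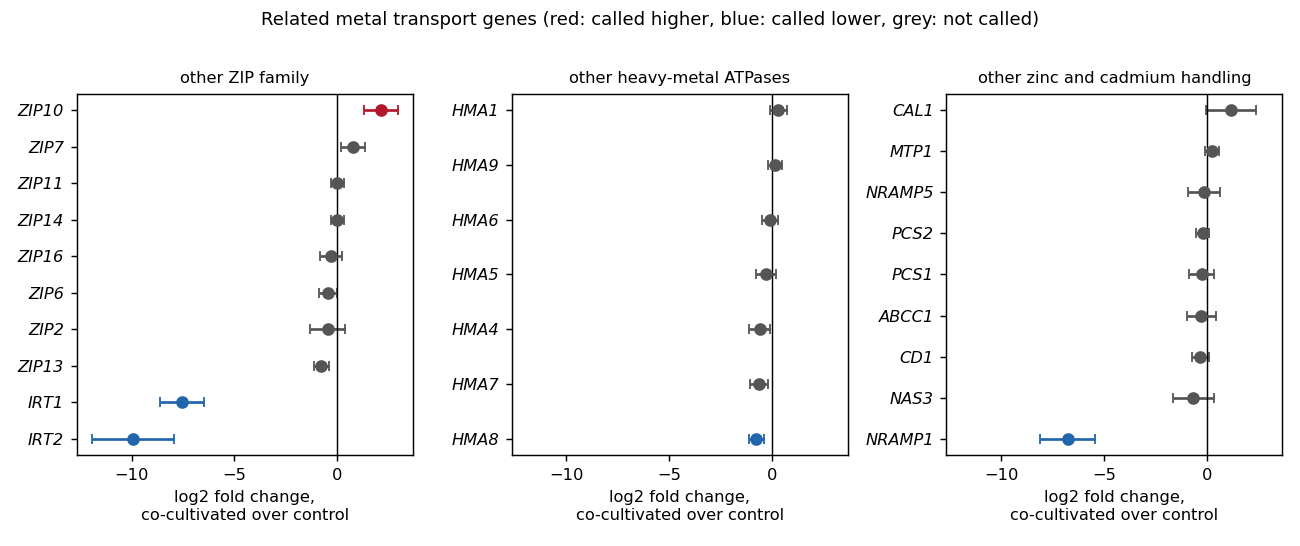
Log2 fold change, co-cultivated over control, from edgeR (horizontal axes) with the 95% interval of each gene alone, for the 26 tested genes of 3 lists: other ZIP family, other heavy-metal ATPases, and other zinc and cadmium handling. ZIP10 is called higher (red), IRT1, IRT2, NRAMP1 and the locus listed as HMA8 are called lower (blue), and the rest are not called (grey); the fitted value of IRT2, with 3 counts over the co-cultivated libraries, depends on the fit's prior count.

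Profiles over the 6 libraries were set side by side as log2 CPM centred on each gene's own mean, and likeness was the root mean square difference between profiles, so a smaller value means more alike. Among the 47 other tested genes of the lists and marker sets, HMA3 was nearest to MTP1, which moves zinc into the vacuole, at 0.20. Its next nearest was HMA9 at 0.22, and all 3 genes had log2 fold changes near 0 (0.12 for HMA3, 0.23 for MTP1 and 0.12 for HMA9). ZIP4 was nearest to the silicon exporter gene LSI2 at 0.36 and next to ZIP7, a zinc carrier of the vasculature, at 0.37. HMA2 was nearest to HMA4 at 0.40 and to the locus listed as HMA8 at 0.41. ZIP1 was nearest to ZIP7 at 0.56 and to the root hair gene CSLD1 at 0.59, and ZIP8 to the locus listed as HMA1 (Os06g0690700) at 0.70 and to ZIP7 at 0.72. ZIP9 was nearest to CSLD1 at 0.75 and to the locus listed as RCc3 (Os02g0662000) at 0.76. ZIP5 was nearest to ZIP9 at 0.86 and ZIP10 at 0.89, wider apart than for any other tested transporter of the 7. The measure includes the difference between groups, so a large fold change by itself sets a profile apart. No other listed gene rose as much as ZIP5, so its distance says nothing more about likeness.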

How the data were processed

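Root-tip RNA of 3 co-cultivated and 3 control boxes was sequenced as poly-A, strand-specific (dUTP) libraries, per the labels' protocols. The authors deposited 1 table of estimated counts per locus, mostly whole, with 1343 to 1409 loci per library more than 1e-06 from a whole number and no scaling between libraries. Per the submitters' processing notes, build IRGSP-1.0 and DESeq2 1.28.1 were used; no aligner or counter is named there. The design had assumed whole counts, so the estimated counts were rounded before edgeR 4.0.16 in R 4.3.3 (filterByExpr, TMM factors, two-sided quasi-likelihood F test on all 6 libraries with group alone), with Benjamini-Hochberg adjustment over 24615 loci and calls under 0.05. The SE is the absolute log2 fold change over the square root of F, and intervals use its degrees of freedom. The same test was tried on simulated data. Alternatives were DESeq2 1.42.0, limma 3.58.1 (voom), other scalings, filters and fits, a replicate block and each library left out. Same-group libraries differed by a chi-square per locus of 23.1 to 119, far above sampling noise near 1, so none was merged.

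The members and lists were chosen with earlier results of these data known. Named are all 8 members, in each other list the called genes and up to 3 with the smallest p, and for each member its 2 most alike profiles. The table does not pair identifiers with names. Of 51 listed symbols, 31 lay on the chromosome and in the order their locus gives in the RefSeq gene table (ASM3414082v1), which includes 7 of the 8 members. For CSLD1 and CAB1R only the chromosome was checked, since no other listed symbol lay on it to compare the order. HMA3 and other symbols that are not in the RefSeq gene table are named by the list alone, and those outside the members are given as "listed as" where the text first names them.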

Additional observations from a re-analysis of the deposited data

How the results depend on the processing

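The single call among the members, ZIP5, held under all 11 alternatives that kept every library and in 5 of the 6 fits without 1 library; its edgeR, limma-voom or DESeq2 adjusted p ran from 2.77e-11 to 0.0692. With DESeq2, 1518 loci were called higher and 1017 lower, and 3 members were called higher; the cause was not tested. Without 1 library, the loci called higher ran from 56 to 361 and the loci called lower from 83 to 493, with fewer libraries in each such fit; the lowest counts came without co-cultivated replicate 1 (56 higher) and without control replicate 1 (83 lower), and the highest without control replicate 2. Members called higher ran from 0 to 1, members called lower stayed at 0, and genes of the other 3 lists called higher ran from 0 to 1. Over all alternatives the named and listed genes gave 0 reversed calls; 17 times a call was lost (ZIP5 1, ZIP10 5, HMA8 11) and 7 times gained. Other scalings moved the median log2 fold change of all loci by at most 0.028.

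Whether the replicate numbers paired the boxes could not be settled from these few weak correlations. Deviations from the group means of same-numbered libraries correlated at 0.05, 0.13 and 0.17 over loci for numbers 1, 2 and 3. Those of differently numbered libraries correlated at −0.19 to 0.07, and not every library correlated best with its own number. With the replicate block 403 loci were called higher and 296 lower, ZIP5 kept its call (edgeR adjusted p = 0.0256), and 0 genes of the other lists were called higher, since ZIP10 reached an edgeR adjusted p of 0.0556. The exact sign-flip test within numbers gave p = 0.25 for the HMA3 to HMA2 ratio, the smallest that 3 pairs allow. With 3 libraries a group, the intervals of members such as ZIP1, ZIP8 and ZIP9 were wide. Their spread between libraries exceeded counting error in both groups, and ZIP3 had too few counts to be tested.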
